A study of Mus musculus with 8 samples.

Results

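The genes described here are 42 markers of the dividing cell, 20 of S phase and 22 of G2 and M phase, taken from a list of symbols. All 42 were found among the 13869 genes of the deposited table, and all 42 passed the filter on low values that left 13740 genes for testing. Their transcripts were measured at E14.5 by sequencing polyadenylated RNA of mouse embryonic ventricles. The mutant group carried a floxed Mib1 allele together with Cre recombinase driven by the cardiac troponin T promoter (Mib1flox; TnT-Cre), a promoter of cardiomyocytes, so other cell types of the ventricle were not targeted. The control group was wild-type siblings, whose floxed or Cre alleles the labels do not describe. Ventricles of 16 hearts per genotype were combined into 4 pools, and each pool gave 1 library. The labels name no litters, so a p-value here covers the spread of the 4 pools of a group, which may be technical.

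The cell cycle alternates DNA replication and mitosis. Before S phase the MCM helicase is loaded on replication origins, and E2F factors, released from RB proteins, switch on genes of helicase, polymerase and nucleotide synthesis. Later the MuvB complex with B-MYB and FOXM1 switches on cyclins, mitotic kinases and spindle proteins, which cyclin B with CDK1 and the anaphase-promoting complex then put to use. In the mouse heart at midgestation, cardiomyocytes still divide, more in the compact wall than in the trabeculae, and Mib1 encodes the ubiquitin ligase that Notch ligands need in the cell that sends the signal. In whole ventricle RNA, fewer cycling cells and less of a transcript per cell cannot be told apart.

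The promoters of the 2 groups of genes differed in the motifs they held, and a few are printed here because they show elements known for each phase. RefSeq promoter windows of 300 bases (250 before to 50 after the start, assembly GRCm38.p6) were found for 35 of the 42 genes, 16 of S phase and 19 of G2 and M phase, and not for Mcm4, Tpx2, Ccna2, Pole, Aurkb, Gins2 and Ccne2. For genes with several windows the first was used. The CHR element, which binds MuvB, was searched as TTTGAA on both strands. It stood in 13 of the 19 G2 and M windows (68.4%), in 2 of the 16 S phase windows (12.5%) and in 11.6% of the windows of 10248 tested genes. An E2F motif, searched on both strands as TTTCCCGC, TTTCGCGC, TTTGCCGC or TTTGGCGC, stood in 6 of 16 S phase windows (37.5%), in 1 of 19 G2 and M windows (5.26%, Cdk1) and in 4.21% of the tested genes. Mcm2 and Cdc45 were the S phase genes with a CHR match. The CCAAT box, bound by NF-Y and searched as CCAAT on both strands, was frequent in both: 12 of 16 S phase windows (75%), 16 of 19 G2 and M windows (84.2%) and 38.8% of the tested genes. A match describes the letters of the window and is no evidence of binding. The median log2 difference between genotypes was 0.04 for the 13 G2 and M genes with a CHR match and 0.07 for the 6 without. Among S phase genes it was −0.0042 for the 6 with an E2F match and −0.08 for the 10 without. It was −0.12 for the 2 S phase genes with a CHR match and −0.03 for the 14 without. These splits were not tested.

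Upstream bases of 4 G2 and M genes follow, read 5′ to 3′ on the gene's strand and ending at the base before the start, with matches to the CHR or the CCAAT box, on either strand, in capitals. They lie at chr10:69352913-69353012 (minus strand), chr4:118437344-118437443 (minus), chr2:164769829-164769928 (plus) and chr3:27153879-27153998 (minus).
Cdk1: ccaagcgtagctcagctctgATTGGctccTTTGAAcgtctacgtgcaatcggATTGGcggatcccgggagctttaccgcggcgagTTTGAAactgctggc
Cdc20: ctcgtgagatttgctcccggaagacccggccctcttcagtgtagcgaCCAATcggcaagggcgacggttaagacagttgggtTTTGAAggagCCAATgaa
Ube2c: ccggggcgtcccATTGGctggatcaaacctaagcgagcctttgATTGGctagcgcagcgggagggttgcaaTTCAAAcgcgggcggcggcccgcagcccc
Ect2: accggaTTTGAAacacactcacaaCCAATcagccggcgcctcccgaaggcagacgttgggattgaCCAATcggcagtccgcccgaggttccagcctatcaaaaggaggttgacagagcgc
In each of these 4 stretches a CHR match stands within the same upstream region as at least 1 CCAAT box.

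Upstream bases of 3 S phase genes follow in the same layout with matches to the E2F motif, on either strand, in capitals, where a longer run in capitals is 2 overlapping matches. They lie at chr1:128359706-128359825 (minus strand), chr8:75109349-75109508 (plus) and chr11:98908011-98908150 (plus).
Mcm6: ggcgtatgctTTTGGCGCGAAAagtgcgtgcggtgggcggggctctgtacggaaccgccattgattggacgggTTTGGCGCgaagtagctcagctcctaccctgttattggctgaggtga
Mcm5: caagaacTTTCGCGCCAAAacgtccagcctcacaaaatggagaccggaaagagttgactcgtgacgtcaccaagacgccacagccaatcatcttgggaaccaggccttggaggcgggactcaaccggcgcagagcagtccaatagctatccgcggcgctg
Cdc6: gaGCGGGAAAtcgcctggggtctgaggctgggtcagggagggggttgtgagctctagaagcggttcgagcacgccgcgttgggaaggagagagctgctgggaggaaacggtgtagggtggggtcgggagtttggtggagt
The windows of the S phase genes E2f1, Tyms and Ccne1 and of the G2 and M genes Nusap1 and Birc5 held none of the 3 motifs. This says only that these letters are not in these windows.

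Mib1, the targeted gene, stood at 95.4 to 106 CPM (CPM is counts scaled to a library size of 1000000 after normalization) in the 4 mutant libraries and at 150 to 167 CPM in the 4 wild-type libraries, with no overlap. On the log2 scale the mutants were lower by a difference of −0.68 ± 0.06 (SE), with a limma adjusted p of 8.62e-06. A two-sided exact permutation test gave 0.0286, which is the lowest p that this design allows. Recovered totals lay between 6307634 and 11506082 counts per library, mutant replicate 1 being the deepest. The 12 cardiomyocyte markers summed to 42526 to 45353 CPM in the mutants and 44335 to 48611 CPM in wild type. None of these 12 markers was called (2.24% of all 13740 genes tested were), 10 of the 12 stood below 0 with a median log2 difference of −0.09, and 4 had an unadjusted p under 0.05, all lower in mutants (33.3%, against 7.85% of all genes tested). Tnnt2, cardiac troponin T, had the smallest p, at −0.21 ± 0.05 (SE; limma adjusted p = 0.0658). The part of these markers in the levels of the cell cycle genes was not tested.

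Between 137 counts (Ccne1) and 7246 counts (Mki67) stood behind each value, with a median of 756.5 counts over genes and libraries, far above a floor of 3 counts. Levels per length were compared as CPM per kilobase of the longest coding transcript, in wild type. Pcna, the sliding clamp of replication, was highest at 114 CPM per kilobase, followed by Top2a, the mitotic DNA topoisomerase, at 99.5, Ccna2 (cyclin A2) at 89.1 and Rrm2, the regulated subunit of ribonucleotide reductase, at 87.6. Cdc6, the origin licensing factor, was lowest at 5.83, below Chaf1a, a subunit of the chromatin assembly factor, at 7 and Pole, the catalytic subunit of DNA polymerase epsilon, at 10.1 CPM per kilobase.

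**Figure D1:**
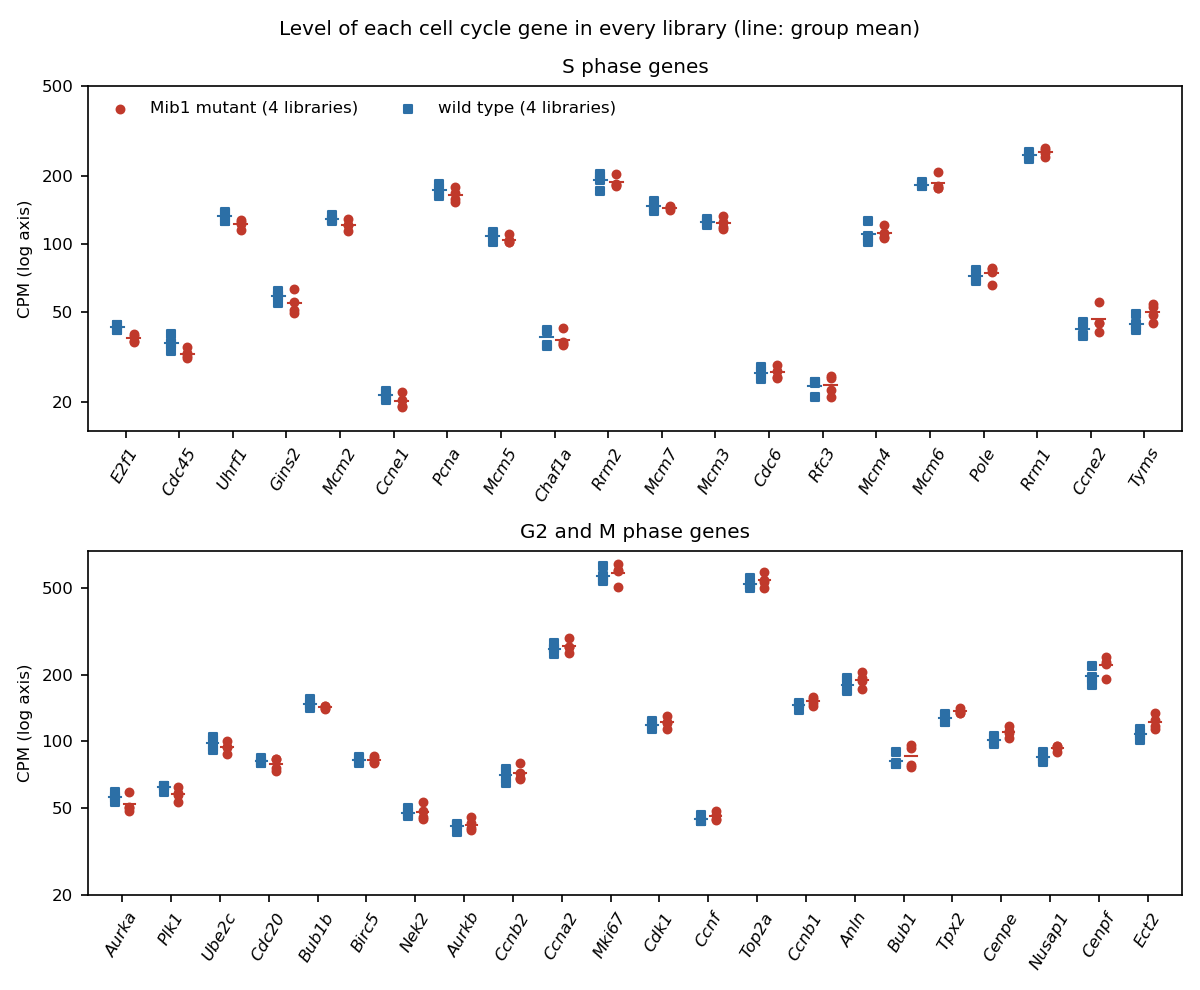
Level of 20 S phase genes (top) and 22 G2 and M phase genes (bottom) in each of 8 libraries, in CPM on a log axis; red circles are Mib1 mutant pools, blue squares wild-type pools, lines group means, and genes are ordered by the difference between groups. The groups overlap for 39 of the 42 genes, and E2f1, Tpx2 and Ect2 are the 3 that do not.

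No S phase gene and no G2 and M phase gene differed between Mib1 mutant and wild-type ventricles by limma at an adjusted p under 0.05 (0 of 42), against 2.24% of all 13740 genes tested (0.99% higher and 1.25% lower in mutants). At an unadjusted p under 0.05 there were 6 of 42 (14.3%), against 14.8% of all genes tested. Of the 6, 5 were higher in mutants (6.94% of all genes tested) and 1 was lower (7.85%). By phase, they were 2 of 20 S phase genes (10%), 1 higher and 1 lower. The other 4 were of 22 G2 and M genes (18.2%), all higher. The split by phase was not tested. With voom weights on the recovered counts, 0 of 42 were called and 6 had an unadjusted p under 0.05. The 4 mutant and 4 wild-type libraries did not overlap for 3 of 42 genes (7.14%), against 8.92% of all genes tested. Ect2 and Tpx2 were higher (4.27% of all genes tested) and E2f1 was lower (4.65%). The 95% intervals of the differences, unadjusted for the number of genes, lay for all 42 genes between 0.805-fold and 1.26-fold. Each interval holds for its own gene, so this range is no joint bound for the 42. The median size of the difference, regardless of sign, was 0.05 on the log2 scale for the 42 genes and 0.07 for the 8017 tested genes with a mean of at least 20 CPM.

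**Figure D2:**
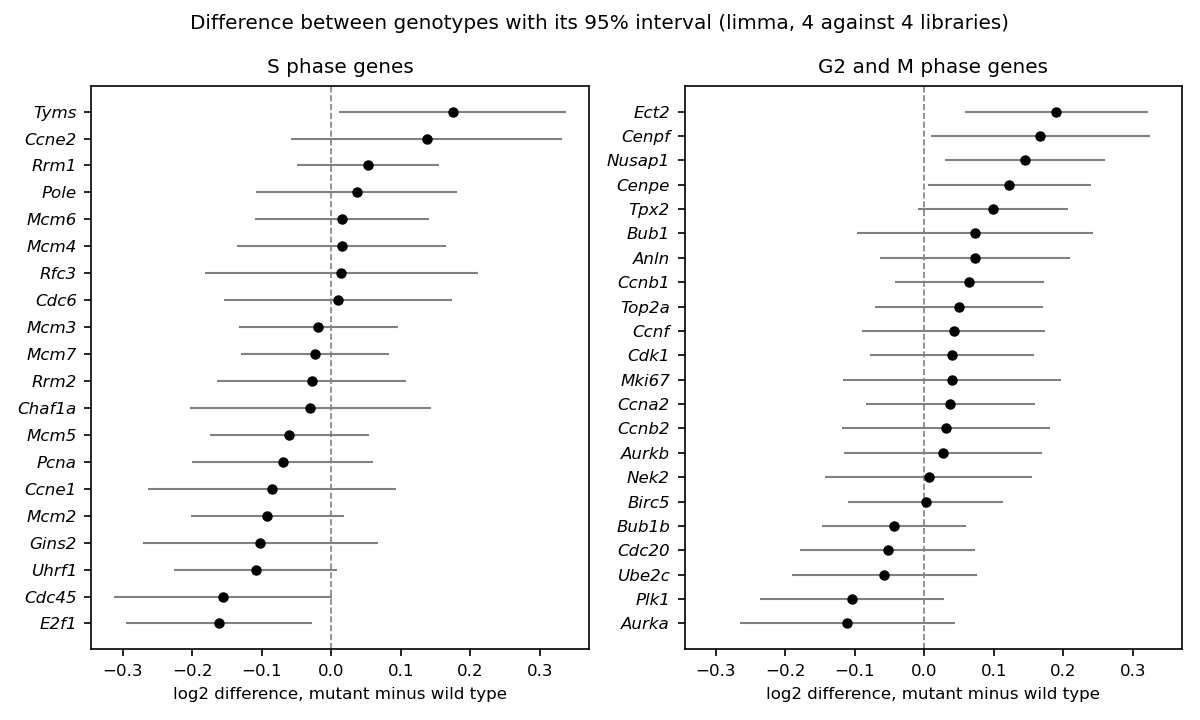
Log2 difference, mutant minus wild type, of each S phase gene (left) and each G2 and M phase gene (right), with its 95% interval from limma over 4 against 4 libraries; the dashed line marks no difference. Of the 42 intervals 36 span 0, and the 6 that do not belong to E2f1 and Tyms of S phase and to Ect2, Nusap1, Cenpf and Cenpe of G2 and M phase.

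Among the S phase genes, 8 stood above 0 and 12 below, with a median log2 difference of −0.03 (0.00092 over all genes tested, of which 50.3% stood above 0). Leaving out 1 library moved that median to between −0.0044 (without wild-type replicate 1) and −0.05 (without wild-type replicate 2). The 9 genes of origin licensing and the replicative helicase had differences between −0.16 and 0.02. Of the MCM subunits, Mcm2 stood at −0.09 ± 0.05 (SE), Mcm5 at −0.06, Mcm7 and Mcm3 at −0.02, and Mcm4 and Mcm6 at 0.02. Their mean levels in wild type ran from 109 CPM for Mcm5 to 183 CPM for Mcm6. Cdc6 stood at 0.01 and Gins2, a subunit of the GINS complex of the active helicase, at −0.1 ± 0.08 (SE).

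Cdc45, which joins MCM and GINS in the active helicase, had the largest negative difference of this role. It measured 35, 32.9, 31.9 and 31.5 CPM in mutant replicates 1 to 4 and 36.2, 33.6, 36.5 and 40 CPM in wild-type replicates 1 to 4. Mutant replicate 1 was higher than wild-type replicate 2, so the groups overlapped. The difference was −0.16 ± 0.07 (SE; limma adjusted p = 0.341).

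The regulators of S phase entry were E2f1, Ccne1 and Ccne2. E2f1, the transcription factor that activates replication genes, measured 37.3, 37, 40 and 39.2 CPM in the mutants and 41.7, 44.1, 41.8 and 44 CPM in wild type. Every mutant library lay below every wild-type library. The difference of −0.16 ± 0.06 (SE) had a limma adjusted p of 0.237, and the exact permutation p was again 0.0286. The genes of cyclin E, which drives CDK2 at the start of replication, went different ways: Ccne1 stood at −0.09 ± 0.08 (SE) and Ccne2 at 0.14 ± 0.09 (SE). Ccne2 in mutant replicate 1 was 55.6 CPM, against 40.9 to 45 CPM in the other mutants.

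The 3 genes of deoxynucleotide synthesis stood at −0.03 to 0.17. Tyms, thymidylate synthase, measured 52.9, 45, 54.2 and 48.9 CPM in the mutants and 43, 44.2, 41.7 and 49.1 CPM in wild type. Wild-type replicate 4 lay above mutant replicates 2 and 4, so the groups overlapped. The difference of 0.17 ± 0.08 (SE) had a limma adjusted p of 0.301. Rrm2 measured 205, 185, 181 and 183 CPM in the mutants and 192, 171, 201 and 204 CPM in wild type, at −0.03 ± 0.06 (SE). Rrm1, the large subunit of the same reductase, stood at 0.05 ± 0.05 (SE).

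Clamp, polymerase and chromatin genes stood between −0.11 and 0.04. Pcna measured 179, 158, 168 and 154 CPM in the mutants and 178, 166, 163 and 185 CPM in wild type, at −0.07 ± 0.06 (SE). The groups overlapped over most of their range. Uhrf1, which couples replication to maintenance of DNA methylation, measured 126, 115, 128 and 123 CPM in the mutants and 137, 127, 127 and 139 CPM in wild type. Mutant replicate 3 was just above wild-type replicates 2 and 3, and the difference was −0.11 ± 0.05 (SE; limma adjusted p = 0.379). Chaf1a stood at −0.03, Rfc3, a clamp loader subunit, at 0.01 and Pole at 0.04.

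Among the G2 and M phase genes, 17 stood above 0 and 5 below, with a median log2 difference of 0.04, which was 0.02 without wild-type replicate 3 and 0.06 without mutant replicate 4. The 5 genes of cyclins and CDK1 all stood above 0, by 0.03 to 0.06, less than the SE of each except Ccnb1. Ccnb1 (cyclin B1) stood at 0.06 ± 0.05 (SE), Ccnf (cyclin F), Cdk1 and Ccna2 at 0.04 and Ccnb2 (cyclin B2) at 0.03. Ccna2 measured 295, 270, 252 and 269 CPM in the mutants and 262, 265, 249 and 280 CPM in wild type. Mutant replicate 1 was the highest library and wild-type replicate 3 the lowest, with the other 6 interleaved.

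Mitotic kinase genes stood on both sides of 0. Aurka, the spindle pole kinase, was lowest at −0.11 ± 0.07 (SE) and Plk1, polo-like kinase 1, at −0.1 ± 0.06 (SE). Bub1b and Bub1, of the spindle checkpoint, stood at −0.04 and 0.07, Aurkb of the chromosomal passenger complex at 0.03 and the centrosomal kinase gene Nek2 at 0.01. Both genes of the anaphase-promoting complex machinery were slightly below 0, its activator Cdc20 at −0.05 ± 0.06 (SE) and its E2 enzyme Ube2c at −0.06 ± 0.06 (SE).

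The 7 genes of chromosomes and the spindle stood above 0, from 0.002 for Birc5 (survivin) to 0.17 for Cenpf. Cenpf, a kinetochore protein of G2 and mitosis, measured 241, 230, 193 and 225 CPM in the mutants and 181, 197, 192 and 220 CPM in wild type. Mutant replicate 3 stood with wild-type replicates 2 and 3, apart from the other 3 mutants, and wild-type replicate 4 stood near mutant replicate 4. The difference was 0.17 ± 0.07 (SE; limma adjusted p = 0.304), and 0.11 with the trend on transcript length removed.

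Cenpe, the kinesin that moves chromosomes to the spindle equator, measured 117, 109, 104 and 111 CPM in the mutants and 98.5, 103, 97.4 and 106 CPM in wild type. The groups overlapped at mutant replicate 3 and wild-type replicate 4. Its difference was 0.12 ± 0.05 (SE; limma adjusted p = 0.315), and 0.08 with the trend on transcript length removed. Nusap1, which bundles spindle microtubules, measured 93.3, 89.9, 95.5 and 95.7 CPM in the mutants and 82.8, 81.1, 90 and 85 CPM in wild type. The groups overlapped only at mutant replicate 2 and wild-type replicate 3, which were nearly equal, and the difference was 0.14 ± 0.05 (SE; limma adjusted p = 0.213).

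Tpx2, an activator of Aurora A on the spindle, stood at 134 to 141 CPM in the mutants and 123 to 133 CPM in wild type, which did not overlap, at 0.1 ± 0.05 (SE; limma adjusted p = 0.383). Top2a measured 588, 539, 498 and 529 CPM in the mutants and 516, 513, 497 and 553 CPM in wild type, at 0.05 ± 0.06 (SE). Mki67, the proliferation marker Ki-67, was the most abundant of the 42 per library, at 500.5 to 639 CPM in the mutants and 534 to 626 CPM in wild type. It stood at 0.04 ± 0.07 (SE), with a 95% interval of −0.12 to 0.2.

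Of the cytokinesis genes, Ect2 had the smallest p of all 42. Ect2, the exchange factor that activates RhoA at the cleavage furrow, measured 135, 125, 114 and 118 CPM in the mutants and 106, 109, 102 and 114 CPM in wild type. Every mutant library lay above every wild-type library, with mutant replicate 3 next to wild-type replicate 4. The difference was 0.19 ± 0.06 (SE; limma adjusted p = 0.145), which is 1.14-fold, and the exact permutation p was 0.0286. Anln, the furrow scaffold anillin, stood at 0.07 ± 0.06 (SE).

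The phases were then set against each other within each library, which cancels any scaling common to both. The mean log2 CPM of the 22 G2 and M genes minus that of the 20 S phase genes was 0.57, 0.67, 0.59 and 0.61 in the mutants and 0.52, 0.58, 0.53 and 0.56 in wild type. Group means were 0.61 ± 0.04 and 0.55 ± 0.03 (SD, n = 4), a difference of 0.06. The groups overlapped, since wild-type replicate 2 lay above mutant replicate 1. Without either of these 2 libraries they did not overlap, with differences of 0.08 (without mutant replicate 1) and 0.07 (without wild-type replicate 2). No p is given for this contrast, since the genes were chosen with earlier results of these data known.

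The summed levels of each phase overlapped between the groups. The 20 S phase genes summed to 2040, 1871, 1919 and 1895 CPM in the mutants and to 1979, 1883, 1945 and 2025 CPM in wild type. The 22 G2 and M genes summed to 3521, 3369, 3184 and 3310 CPM in the mutants and to 3196, 3194, 3118 and 3401 CPM in wild type. Mutant replicate 1 was high in both sums and wild-type replicate 4 was the highest of its group in both.

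Across the 8 libraries the mean log2 levels of the phases had Pearson's r = 0.25 and Spearman's rho = 0.38. With each group's mean removed the values were r = 0.57 and rho = 0.52. Without the 2 libraries farthest from the median S phase level, mutant replicates 1 and 2, r was 0.39 for the levels and 0.69 for the deviations. Without mutant replicate 1 alone r of the levels was −0.026, and without mutant replicate 2 alone it was 0.58. With libraries scaled by their total counts r was −0.15 for the levels and 0.16 for the deviations, and with the median over genes in place of the mean r of the deviations was 0.086. The relation between the phases thus changed size, and for the levels also sign, with these choices. These are descriptions of 8 points that share their normalization, with no p. The deviations themselves were small: S phase levels spanned −0.05 to 0.07 and G2 and M levels −0.03 to 0.05 on the log2 scale around the group means.

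**Figure D3:**
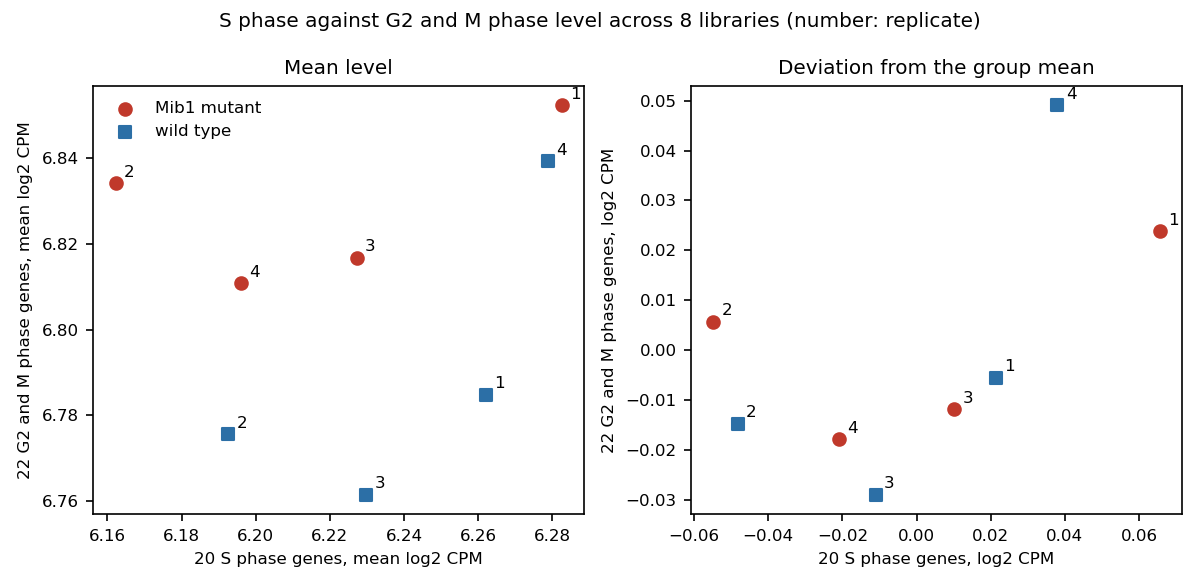
Mean log2 CPM of the 22 G2 and M phase genes against that of the 20 S phase genes in each of 8 libraries, as levels (left) and as deviations from the group mean (right); red circles are mutant pools, blue squares wild-type pools, and numbers are replicates. Mutant replicate 1 and wild-type replicate 4 are high on both axes, and mutant replicate 2 has the lowest S phase level.

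Gene by gene, mean correlations between members were higher within S phase than within G2 and M phase, a difference that was not tested. Over 190 pairs of S phase genes the mean r across libraries, group means removed, was 0.21, and 127 pairs were positive. Over 231 pairs of G2 and M genes it was 0.05, with 116 pairs positive, and over 440 pairs between the phases 0.1, with 267 positive. The mean over all pairs of genes with at least 20 CPM was 0.0027. Mcm5 (r = 0.87), Pcna (0.85) and Uhrf1 (0.81) followed the mean of the other S phase genes most closely. Of the G2 and M genes, Top2a (0.77), Ccna2 (0.74) and Ect2 (0.73) followed the others most. The r to the others was below 0 for 10 of the 22 G2 and M genes, lowest for Ube2c (−0.72) and Plk1 (−0.4). It was below 0 for 4 of the 20 S phase genes. Only 14 of the 20 S phase genes and 12 of the 22 G2 and M genes were closer to their own phase than to the other. Mcm4, an S phase gene, was among the rest, closer to the G2 and M mean (0.99) than to its own (0.53). The median SD within groups was 0.09 for S phase and 0.08 for G2 and M genes on the log2 scale, and 0.1 for all tested genes of at least 20 CPM.

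Transcript length moved with these patterns. Across the 22 G2 and M genes the difference between genotypes was higher for longer transcripts, with Spearman's rho = 0.67 (0.31 across the 20 S phase genes and 0.22 across 13314 tested genes of known length). The 11 longest G2 and M genes, 3526 to 11130 bases, had a median difference of 0.07 with 10 above 0, and the 11 shortest, 1531 to 3421 bases, a median of 0.01 with 7 above 0. Longer G2 and M genes also followed the mean of their phase more closely (rho = 0.61), while across the S phase genes this rho was 0.15. Over all genes a trend on length differed between libraries, also within the mutant group. The correlation of a library's deviation from the gene mean with length was 0.23, 0.2, −0.2 and 0.09 in mutant replicates 1 to 4. In wild-type replicates 1 to 4 it was −0.14, −0.18, −0.19 and 0.02. With each library's trend on length removed, a setting chosen after seeing the data, the medians were −0.02 for S phase and 0.03 for G2 and M genes, the contrast between phases was 0.06 and 0 of 42 genes were called.

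**Figure D4:**
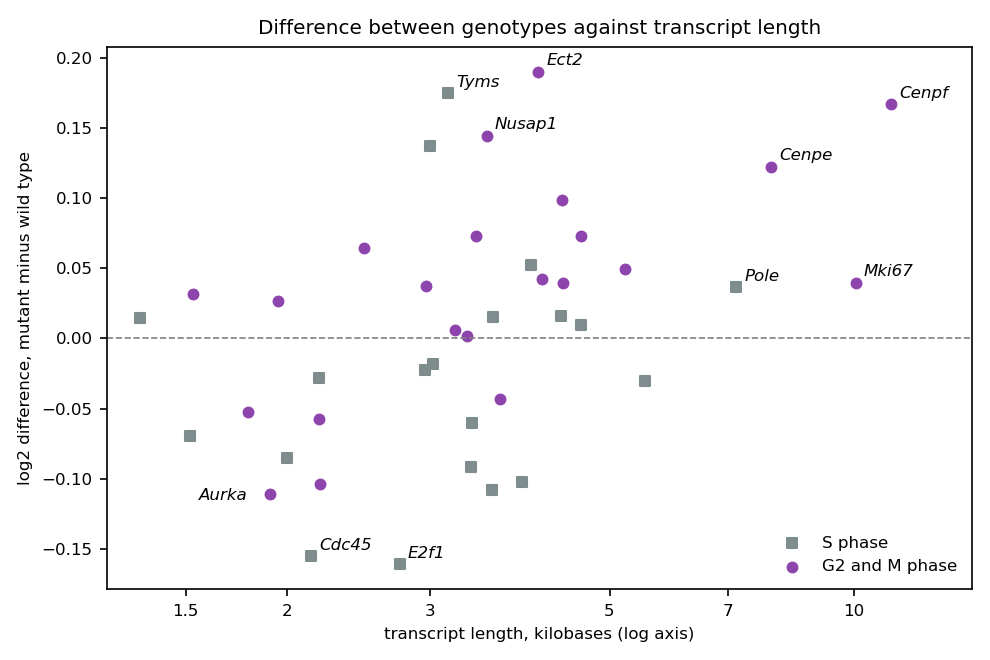
Log2 difference, mutant minus wild type, against the length of the longest coding transcript in kilobases (log axis) for 20 S phase genes (grey squares) and 22 G2 and M phase genes (purple circles). Among G2 and M genes, Aurka at 1905 bases is lowest at −0.11 and Cenpf at 11130 bases stands at 0.17.

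The other genes of the cycle were read from 7 lists that hold 143 tested genes. The lists came from general knowledge, but were chosen with earlier results of these data known. None was called by limma (0 of 143), 10 had an unadjusted p under 0.05 (6.99%, against 14.8% of all genes tested), and their differences ran from −0.31 to 0.2 with a median of 0.01. In each list the gene of smallest p is given. Of 22 genes of origin licensing and firing Orc5, an origin recognition subunit, stood at −0.15 ± 0.08 (SE), and of 25 genes of the fork and nucleotide synthesis Dut, the dUTPase, at −0.31 ± 0.1 (SE; limma adjusted p = 0.14). Leaving out 1 library at a time, Dut was called in 1 of 8 fits. Of 19 E2F, RB and DREAM genes Rbl2, which encodes the RB relative p130, stood at 0.18 ± 0.06 (SE; limma adjusted p = 0.187).

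Of 15 checkpoint genes Ttk, the MPS1 kinase, stood at 0.19 ± 0.07 (SE) with 32.1 to 36 CPM in the mutants and 28.5 to 31.6 CPM in wild type. Of 17 genes of APC/C, SCF and securin Cks2, a CDK-binding subunit, stood at −0.17 ± 0.06 (SE), and of 24 kinetochore and condensin genes Cdca8, borealin, at −0.14 ± 0.06 (SE). Of 21 genes of mitotic kinesins, spindle and cytokinesis Hmmr stood at 0.14 ± 0.06 (SE). Of all genes tested 50.3% stood above 0, and of the lists 17 of 21 genes of kinesins, spindle and cytokinesis, 15 of 19 of E2F, RB and DREAM, 13 of 24 of kinetochore and condensin, 12 of 22 of origin licensing, 9 of 15 of checkpoints, 7 of 17 of APC/C, SCF and securin and 7 of 25 of the replication fork. The list medians ran from −0.03 (replication fork) to 0.07 (kinesins, spindle and cytokinesis).

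In 2 further lists 1 of 10 and 3 of 20 genes were called, against 2.24% of all genes tested. These lists were chosen with earlier results of these data known, so the comparison is no test of them. Of 10 tested genes of G1 cyclins, their kinases and CDK inhibitors, Cdkn1c, which encodes the CDK inhibitor p57, fell: it measured 201, 203.5, 244 and 213 CPM in the mutants and 267, 261, 292 and 252 CPM in wild type, with no overlap. Its difference was −0.32 ± 0.07 (SE; limma adjusted p = 0.0221), and leaving out 1 library at a time it was not called in 5 of 8 fits, with an adjusted p of at most 0.086. Of 20 signals and factors of cardiomyocyte proliferation, Bmp10, a trabecular growth factor, fell by 2.29 on the log2 scale, and the transcription factor genes Tbx20 (0.41) and Hey2 (0.25) rose. Hey2 was not called in 4 of the 8 fits, with an adjusted p of at most 0.102.

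The genes whose deviations were most like the mean of each phase across the 8 libraries (group means removed, 10736 genes of at least 5 CPM compared) were mostly outside the cell cycle lists. For S phase the 10 closest were Ssbp1, Trappc1, Ptdss1, Smim15, Cep76, Enpp1, Scaf8, Dna2, Tox3 and Ints14, at r = 0.97 to 0.94. For G2 and M phase they included Eif3a, Qrich1, Usp15, Uggt2, Trim24, Cast, Chek2, Atg5 and Pclaf, at r = 0.98 to 0.96. These are the top of a ranking of 10736 genes over only 8 libraries. Values this high can arise by chance in such a ranking, and no test was made. Dna2 is a nuclease of the replication fork, Pclaf a PCNA-binding factor and Chek2 a checkpoint kinase, the last being the 1 gene of those named that stands in a list used here. Of those named, Tox3 alone was called (0.36; limma adjusted p = 0.0192).

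Markers of other ventricular cell types were read beside these levels, and none of the tested markers was at 0 counts. Of all genes tested 1.25% were called lower and 0.99% higher. Of 12 endothelial and endocardial genes 6 fell, and their sum was 1224 to 1262 CPM in the mutants and 1457 to 1486 CPM in wild type. Of 12 macrophage genes 3 fell, with sums of 75.4 to 94 and 112 to 136 CPM. Of 9 tested erythroid genes 2 fell (Epb42, Klf1 and Gata1 were not among the genes analysed here), with sums of 1967 to 3229 and 3003 to 4091 CPM. Of 10 epicardial genes none was called, with sums of 248 to 286 and 237 to 255 CPM. Of 10 fibroblast and cushion genes 1 fell, with sums of 4606 to 5047 and 4762 to 5100 CPM. Of 8 smooth muscle and pericyte genes 2 rose and 1 fell, with sums of 1591 to 1723 and 1329 to 1509 CPM. Their part in the levels of the cell cycle genes was not tested.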

How the data were processed

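The table deposited by the authors holds 13869 genes in 8 columns. Its deposited values are scores that the authors made, as the values show, from log2 CPM with 0.5 counts added, multiplied in each column by a constant that makes it sum to 1000000. Dividing by that constant, found from the 2 lowest distinct values, gave log2 CPM, and all values (100%) then came back as whole counts within 0.001 counts. Per the submitters' processing notes, cutadapt 1.2.1, RSEM 1.16, Bowtie2 0.12.7 (as named), limma and edgeR were used with build mm9.

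Symbols and transcript lengths came from GENCODE M21 (13428 genes had a symbol), promoters from RefSeq. Mutant and wild type were tested with limma (version 3.58.1, R 4.3.3; trend on the mean, group as the only term) over the 13740 genes whose mean log2 CPM reached 0; p-values were two-sided with Benjamini-Hochberg adjustment, called under 0.05. CPM are given per library; a floor of 3 counts was 0.265 to 0.472 CPM, for counting error only. The pipeline was tested on simulated data. Values in every library are given for the 4 of smallest p in each phase and the 2 of highest CPM per kilobase, and other lists give called members (at most 3) or that of smallest p. The 10 genes most like each phase mean are named, except 1 that is not reported here. Mki67 and Tpx2 in ranges were chosen after their values were seen. The members, lists and rules were chosen with earlier results of these data known. Replicate pairs of a group differed by more than counting noise. The chi-square per degree of freedom of a pair was 3.22 to 9.43 in mutants and 1.96 to 4.16 in wild type. It was highest in pairs with mutant replicate 1, the deepest library. The limma fit used a single variance per gene for both groups. Alternatives were 3 scalings, 2 pseudocounts, 2 filters, 2 eBayes settings, voom weights, the replicate number as a block, a threshold of 0.1 and each library left out; removal of the length trend was added after seeing the data.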

Additional observations from a re-analysis of the deposited data

Results flagged for a closer look

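Within a group of 4 libraries, the library farthest from the others was looked for with Dixon's ratio (gap over range, 95% critical value). Of 114 groups tested 8 passed it, and chance gives about 1 in 20. Mcm6 in mutant replicate 1 stood at 209 CPM against 177 to 181 CPM (ratio 0.872), Chaf1a in mutant replicate 4 at 42.4 against 35.9 to 36.9 CPM (0.854), and Rfc3 in wild-type replicate 4 at 21.2 against 24.4 to 24.6 CPM (0.939). Aurkb in wild-type replicate 1 stood at 38.7 against 41.7 to 42.3 CPM (0.832), Plk1 in wild-type replicate 2 at 59.2 against 62.7 to 62.9 CPM (0.931), and Bub1 in wild-type replicate 4 at 89.2 against 78.6 to 79.5 CPM (0.921). Ccnf in wild-type replicate 1 stood at 46.5 against 43.5 to 43.7 CPM (0.953), and Rbl2 in wild-type replicate 2 at 42 against 46.4 to 47.3 CPM (0.833).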

How the results depend on the processing

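No S phase and no G2 and M phase gene had an adjusted p under 0.05 in any of the 20 alternative fits, or under 0.1 with all libraries in the planned fit; without mutant replicate 3, Cenpf (0.0602, the smallest) and Ect2 (0.0624) were under 0.1. With a library left out, the S phase median ran from −0.05 to −0.0044, the G2 and M median from 0.02 to 0.06, and the contrast between phases from 0.04 to 0.08; under the other settings they ran from −0.04 to −0.02, 0.03 to 0.04 and 0.05 to 0.06. Mib1 kept its call throughout (−0.73 to −0.66). The correlation between the phases depended on the scaling: r of the levels was −0.15 with total-count scaling, and −0.026 to 0.58 with a library left out (lowest without mutant replicate 1, highest without mutant replicate 2). With group means removed it was 0.16 with total-count scaling, 0.086 with the median over genes in place of the mean, and 0.44 to 0.77 with a library left out; the cause was not tested. No pairing of the libraries by replicate number was seen, though so few libraries could hide a weak one. Deviations of same-numbered libraries correlated at −0.04 to 0.1, and 1 wild-type and no mutant library was closest to its own number. With the replicate number as a block, 0 S phase and 0 G2 and M phase genes were called, and the count over all genes was 240 in place of 308. Without a trend in eBayes it was 179, and with a library left out 146 (without wild-type replicate 1) to 477 (without mutant replicate 3).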
